A study of Mus musculus with 64 samples.

Results

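Complement and coagulation are the 2 protease cascades of the blood, and 39 of their genes, among the 23338 genes listed in each count file, were described across 64 mouse RNA-seq libraries. The genes were chosen by symbol as plasma complement and coagulation factors that the liver secretes, and they fall into 8 roles, from the activators of complement to the proteins that dissolve clots. All mice were C57BL/6 (C57BL/6 J in the study's methods) with no engineered allele or treatment named in the labels. The groups used were adult liver M and adult liver F (12 mice each, a few months old), fetal liver M and fetal liver F (12 late-gestation fetuses each), eight-cell embryos M and F (6 single embryos each, from natural matings) and embryonic stem (ES) cells M and F (2 lines each, derived from eight-cell embryos and grown in 2i medium, in which kinase inhibitors hold the cells in an undifferentiated state). M and F are the gender labels, which the study set by PCR for a Y-linked gene in fetuses and ES cells and by sex-linked transcripts in embryos. The study asked when differences between the sexes arise in development, and for these genes the comparisons were fetal against adult liver, M against F within each liver stage, and the difference between the adult and the fetal gap.

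Complement tags microbes and damaged cells for removal. It can be started by the lectins Mbl1 and Mbl2 with their proteases, by antibody through C2 and C4b, or by the alternative pathway through Cfb, and every route cleaves C3. Cleavage of the fifth component, encoded by Hc, then lets C6, C7, C8 and C9 assemble into the membrane attack complex, and C8 itself is built from an alpha, a beta and a gamma chain. In coagulation a chain of proteases ends in thrombin, the product of F2, which turns fibrinogen into fibrin, while antithrombin and the protein C system hold the chain back and plasmin dissolves the clot. Hepatocytes are the main source of nearly all of these plasma proteins, and the fetal liver is at the same time a site of blood formation.

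Reads on genes numbered 1567583 to 4757610 in adult livers, 5145371 to 8499603 in fetal livers, 4659656 to 7725432 in eight-cell embryos and 9857929 to 10386931 in ES cells. Levels are given as CPM, the counts divided by library totals scaled with edgeR's TMM factors. Before that scaling, 3 reads were worth 0.631 to 1.91 CPM in an adult liver and 0.353 to 0.583 CPM in a fetal liver, a floor that covers counting error only. Every one of the 39 genes had at least 3 reads in each of the 48 livers and passed the filter on low counts. The 10 hepatocyte markers, Alb and Ttr among them, summed to 46431 to 60759.7 CPM in fetal liver M, 44711 to 57886 CPM in fetal liver F, 75367 to 89086 CPM in adult liver M and 88422 to 101809 CPM in adult liver F. The 9 erythroid markers found summed to 3872 to 5328 CPM in fetal liver M, 3805 to 5691 CPM in fetal liver F, 188 to 242 CPM in adult liver M and 19.1 to 56.8 CPM in adult liver F. The globin genes among them, Hbb-b1, Hba-a1 and Hba-a2, were at 0 in every adult liver and near 0 in fetal livers. Reads outside annotated genes made up 39.9% to 49.02% of the reads in fetal liver M but 34.1% to 38.1% in fetal liver F, so that gender and this share cannot be told apart there. Non-unique alignments per read on genes were 0.55 to 0.63 in fetal livers, 1.09 to 2.26 in adult liver M and 0.70 to 1.17 in adult liver F. This ratio separated the stages fully and adult M from F nearly so, and its part in those differences was not tested. Fetal livers 11 and 14 and adult livers 2, 6 and 19 lay farthest out on one of the first 3 principal components of their stage. Adult liver 6 did so narrowly, on the first component, with an absolute weight of 0.241 against 0.234 for the next liver.

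The promoter windows of 6 of the genes are shown because their levels differed most: C4bp and Mbl2 for the difference between fetal and adult liver, and C6, C8a, C8b and C9 for that between adult M and F. Each runs from 250 bases before to 50 bases after the transcription start of the RefSeq gene on build GRCm38.p6 and is read 5′ to 3′ on the gene's own strand. Capitals mark the letters TTCNNNGAA, the consensus of STAT5, a factor that growth hormone activates in liver, and GTTAAT or its reverse complement ATTAAC, part of the site of the liver factor HNF1.
C4bp promoter, chr1:130661569-130661868, minus strand: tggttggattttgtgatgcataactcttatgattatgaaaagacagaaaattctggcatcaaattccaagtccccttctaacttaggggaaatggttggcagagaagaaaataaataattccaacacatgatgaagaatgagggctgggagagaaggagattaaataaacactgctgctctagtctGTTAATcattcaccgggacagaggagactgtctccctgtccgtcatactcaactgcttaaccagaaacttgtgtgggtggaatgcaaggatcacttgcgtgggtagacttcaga
Mbl2 promoter, chr19:30232678-30232977, plus strand: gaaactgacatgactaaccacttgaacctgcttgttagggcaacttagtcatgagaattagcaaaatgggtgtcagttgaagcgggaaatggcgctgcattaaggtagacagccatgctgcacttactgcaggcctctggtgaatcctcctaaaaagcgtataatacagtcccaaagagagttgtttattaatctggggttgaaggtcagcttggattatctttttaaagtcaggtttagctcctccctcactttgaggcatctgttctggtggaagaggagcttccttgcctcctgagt
C6 promoter, chr15:4726960-4727259, plus strand: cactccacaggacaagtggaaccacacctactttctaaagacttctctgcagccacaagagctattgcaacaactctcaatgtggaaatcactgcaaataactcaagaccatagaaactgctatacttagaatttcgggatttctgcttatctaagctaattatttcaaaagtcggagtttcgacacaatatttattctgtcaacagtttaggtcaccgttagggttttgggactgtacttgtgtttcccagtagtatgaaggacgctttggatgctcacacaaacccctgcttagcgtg
C8a promoter, chr4:104876349-104876648, minus strand: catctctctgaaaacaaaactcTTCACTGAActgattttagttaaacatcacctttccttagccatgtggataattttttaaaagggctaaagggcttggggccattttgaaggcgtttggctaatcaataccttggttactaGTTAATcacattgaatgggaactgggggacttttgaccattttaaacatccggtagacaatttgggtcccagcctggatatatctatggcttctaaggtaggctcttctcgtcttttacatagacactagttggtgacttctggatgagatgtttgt
C8b promoter, chr4:104766067-104766366, plus strand: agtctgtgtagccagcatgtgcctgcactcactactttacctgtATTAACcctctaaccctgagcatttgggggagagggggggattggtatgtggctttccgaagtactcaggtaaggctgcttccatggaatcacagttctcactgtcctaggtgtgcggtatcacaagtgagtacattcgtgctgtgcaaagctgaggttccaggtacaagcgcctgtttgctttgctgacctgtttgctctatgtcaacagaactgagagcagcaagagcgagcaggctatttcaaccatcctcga
C9 promoter, chr15:6445096-6445395, plus strand: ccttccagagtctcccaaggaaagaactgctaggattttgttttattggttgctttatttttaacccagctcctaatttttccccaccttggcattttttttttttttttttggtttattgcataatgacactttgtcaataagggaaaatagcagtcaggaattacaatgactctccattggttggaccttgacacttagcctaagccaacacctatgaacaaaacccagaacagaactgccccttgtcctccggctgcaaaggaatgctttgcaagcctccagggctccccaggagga
C8a held a TTCNNNGAA match that began 228 bases upstream of its start and a GTTAAT match 107 bases upstream, C8b held ATTAAC 206 bases upstream, C4bp held GTTAAT 64 bases upstream, and these letters were not in the windows of Mbl2, C6 and C9. Over all 32851 RefSeq windows, TTCNNNGAA stood in 8.30% and GTTAAT, on either strand, in 7.10%. A window was given for 30 of the 39 genes, of which 7 held the first motif and 10 the second, while CAAAGTCCA, a site of the liver factor HNF4, was in none of them and in 0.475% of all windows. A match of letters is a description and not a bound site.

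Between fetal and adult liver nearly the whole set rose. Of the 39 genes, 36 were higher in adult liver, F11 was lower, and C8b and Serpinf2 passed the p-value but not the fold threshold (edgeR's quasi-likelihood test with Benjamini-Hochberg adjustment over 13026 genes, adjusted p under 0.1 and an absolute log2 difference above 0.5). Over all genes tested, 31.7% were called higher and 35.4% lower. The median log2 difference, adult minus fetal, was 1.42 for the 39 genes and -0.047 for all genes tested. In 30 of the 39 every adult liver lay above every fetal liver, which 19.2% of all genes tested did, and in the other 9 the stages overlapped. Together the 39 genes took 2.52% to 3.64% of the reads on genes in a fetal liver and 4.09% to 5.88% in an adult liver. In whole tissue, fewer cells of a type and less RNA per cell cannot be told apart.

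The direction of many of these differences turned on what they were measured against. Of the 10 hepatocyte markers 8 rose, by log2 differences of up to 2.05, and the erythroid, neutrophil, megakaryocyte and proliferation markers that were tested, 24 in all, fell. When the livers were scaled by their median ratio over the 10 hepatocyte markers, called the hepatocyte scale here, the median of all genes moved to -1.29, with 10.04% called higher and 74.6% lower over all genes. On that scale 12 of the 39 genes were called higher and 10 lower in adult liver, and their median was 0.17. With library totals alone the median of all genes was -0.61, 18.4% of all genes were called higher and 54.00% lower, and 27 of the 39 genes were called higher and F11 lower.

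**Figure D1:**
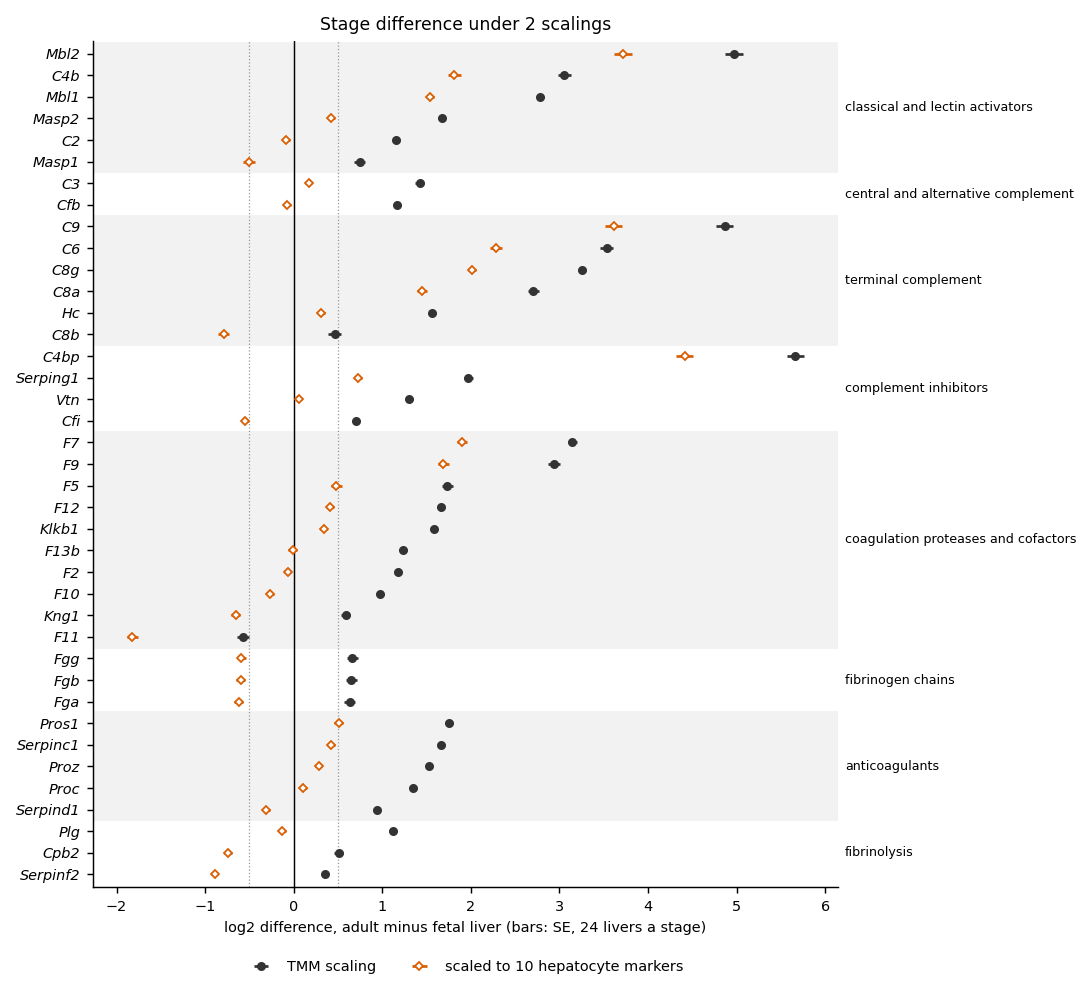
Log2 difference between adult and fetal liver for each of the 39 genes, grouped by role, with TMM scaling (filled circles) and scaled by the median ratio of 10 hepatocyte markers (open diamonds). Bars are standard errors over 24 livers a stage and dotted lines mark the fold threshold. C4bp, Mbl2 and C9 lie farthest right on both scales, while the fibrinogen chains lie above 0 on the first scale and below 0 on the second.

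The activators of the lectin and classical routes showed a wide spread of stage differences. Mbl2, a mannose-binding lectin that recognises microbial sugars, had its lowest, median and highest value at 7.77, 17.8 and 26.3 CPM in the 24 fetal livers and 349, 576 and 970.0 CPM in the 24 adult livers, with no overlap. Its log2 difference was 4.97 (SE 0.099, adjusted p = 2.57e-41), 31.3-fold. C4b, the complement component that binds covalently to surfaces, stood at 137, 216 and 282 CPM in fetal and 1509, 1722 and 2749 CPM in adult liver, a log2 difference of 3.06 (SE 0.078, adjusted p = 1.04e-37). Its reads may be shared with C4a, a near-identical copy. Mbl1, the second mannose-binding lectin, differed by 2.78, and Masp2, the protease that cleaves C4 and C2 for both lectins, by 1.67. C2 differed by 1.16 and Masp1, the other lectin-bound protease, by 0.74, and Masp1 was the only one of the 6 in which the stages overlapped. On the hepatocyte scale, Mbl2, C4b and Mbl1 remained higher in adult liver (3.72, 1.81 and 1.53) and Masp1 was lower (-0.50). C2 and Masp2 were at -0.087 and 0.42, past the p-value but not the fold threshold.

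C3, the hub of all 3 complement routes, was among the most abundant of the genes at both stages. Its lowest, median and highest values were 2867, 3643 and 4311 CPM in fetal and 6471, 10103 and 14409 CPM in adult liver, a log2 difference of 1.42 that was 0.17 on the hepatocyte scale. Cfb, the protease of the alternative route, differed by 1.17, and by -0.074 on the hepatocyte scale.

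In the terminal pathway 5 of 6 genes rose, with the largest median of the roles with more than 2 members (2.98). C9, which forms the ring of the membrane pore, had its lowest, median and highest value at 10.7, 18.5 and 27.6 CPM in fetal livers and 289.6, 601 and 1117 CPM in adult livers, a log2 difference of 4.87 (SE 0.097, adjusted p = 2.64e-41). C6, a component of the membrane attack complex, stood at 7.58, 11.5 and 13.8 CPM and 28.8, 196 and 545 CPM, a difference of 3.53 (SE 0.076, adjusted p = 1.9e-42). C8g, the gamma chain of C8, stood at 37.5, 46.3 and 57.97 CPM and 379.8, 442 and 536 CPM, a difference of 3.25 (SE 0.044, adjusted p = 2.47e-53). None of the 3 overlapped between the stages. The adult values of C6 fell apart by gender label, with means of 421 CPM in M and 40.1 CPM in F. Its pooled adult median therefore lay between the M and the F livers. C8a, the alpha chain, differed by 2.71 and Hc by 1.57. C8b, the beta chain, had 296 ± 34.9 CPM (SD, n = 24) in fetal and 449.8 ± 219 CPM (SD, n = 24) in adult liver. That adult SD spans M and F livers, whose means were 642 and 258 CPM. The log2 difference of C8b, 0.46 (SE 0.073, adjusted p = 9.44e-08), did not pass the fold threshold. On the hepatocyte scale C9, C6, C8g and C8a remained higher (3.61, 2.28, 2.01 and 1.45), Hc was at 0.31 and C8b was lower (-0.79).

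The largest stage difference of all 39 genes was in an inhibitor. C4bp, which binds C4b and speeds the decay of the C3 convertase, had its lowest, median and highest value at 8.83, 15.8 and 32.7 CPM in fetal and 624, 812 and 948 CPM in adult liver. The log2 difference was 5.66 (SE 0.094, adjusted p = 1.5e-45), 50.7-fold, and 4.41 on the hepatocyte scale. Serping1, the C1 inhibitor that also blocks kallikrein, rose by 1.97 (0.72 on the hepatocyte scale). Vtn, vitronectin, which keeps the terminal complex off host membranes, differed by 1.30 and Cfi, the protease that inactivates C3b and C4b, by 0.70. Vtn was at 0.059 on the hepatocyte scale and Cfi was lower (-0.55).

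Of the 10 coagulation proteases and cofactors 9 were higher and F11 was lower, with a median log2 difference of 1.41. F7, which starts the tissue factor route, had its lowest, median and highest value at 11.3, 15.8 and 20.6 CPM in fetal and 93.6, 140.5 and 213 CPM in adult liver, a log2 difference of 3.15 (SE 0.051, adjusted p = 1.03e-49) with no overlap. F9, the X-linked gene of haemophilia B, stood at 19.1, 37.04 and 50.1 CPM and 235, 288 and 345 CPM, a difference of 2.94. These 2 were the only coagulation proteases or cofactors called higher on the hepatocyte scale (1.90 and 1.69), where F5, F12 and Klkb1 passed the p-value but not the fold threshold (0.48, 0.41 and 0.34). F5, the cofactor of factor Xa, differed by 1.73, F12 by 1.66, Klkb1, the precursor of plasma kallikrein, by 1.58, F13b, the carrier chain of the fibrin cross-linking enzyme, by 1.23, F2 by 1.18 and F10 by 0.98. Kng1, kininogen, rose by 0.59, a call lost with DESeq2 (0.49) and in M livers alone (0.37), and was lower on the hepatocyte scale (-0.66). On that scale 5 of the 10 genes were below 0, and F10 (-0.26) and F2 (-0.069) among them passed the p-value but not the fold threshold.

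F11, the protease that amplifies thrombin formation, was the only one of the 39 genes lower in adult liver. Its lowest, median and highest values were 143, 186 and 230.3 CPM in fetal livers and 74.2, 136 and 179 CPM in adult livers, and the stages overlapped. The log2 difference was -0.57 (SE 0.066, adjusted p = 1.8e-11), and -1.82 on the hepatocyte scale. It was lower in adult M alone (-0.51) and in adult F alone (-0.69).

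The 3 fibrinogen chains moved as one. Fga differed by 0.63, Fgb by 0.65 and Fgg by 0.66, higher in adult liver with TMM scaling but lower on the hepatocyte scale (-0.62, -0.60 and -0.59), and near 0 and not called with library totals. Fgb stood at 2189, 3427 and 4215 CPM in fetal and 4034, 5157 and 7408 CPM in adult liver, with overlap. On the scale of CPM per kilobase of exon they were the most abundant of the genes in fetal liver, at 1304 for Fgg, 1261 for Fga and 887 for Fgb, and in adult liver at 2062, 1955 and 1391, where C3 (1941) and Vtn (1453) ranked above Fgb. C6 was the least abundant in fetal liver on that scale, at 3.22, and Masp1 in adult liver, at 12.6. Within adult F the order differed at both ends, with C3 (2405) above Fgg (2176) and C6 (11.6) below Masp1 (12.2), while in adult M Fgg (1947) was first and Masp1 (12.9) last. Duplicate reads had been removed before counting, which can lower the counts of such abundant transcripts.

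All 5 anticoagulants rose: Pros1, protein S, by 1.75, Serpinc1, antithrombin, by 1.67, Proz, protein Z, by 1.53, Proc, protein C, by 1.35 and Serpind1, heparin cofactor II, by 0.94. On the hepatocyte scale only Pros1 of the 5 was called (0.51), and Serpind1 was at -0.31. Among the genes of clot dissolution, Plg, the precursor of plasmin, rose by 1.12, and Serpinf2, the plasmin inhibitor, was at 0.35. Cpb2, which protects fibrin from plasmin, rose by 0.51, a call lost with DESeq2 (0.41), without the filter (0.46) and in F livers alone (0.45). Plg was at -0.13 on the hepatocyte scale, while Cpb2 and Serpinf2 were lower (-0.74 and -0.89).

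**Figure D2:**
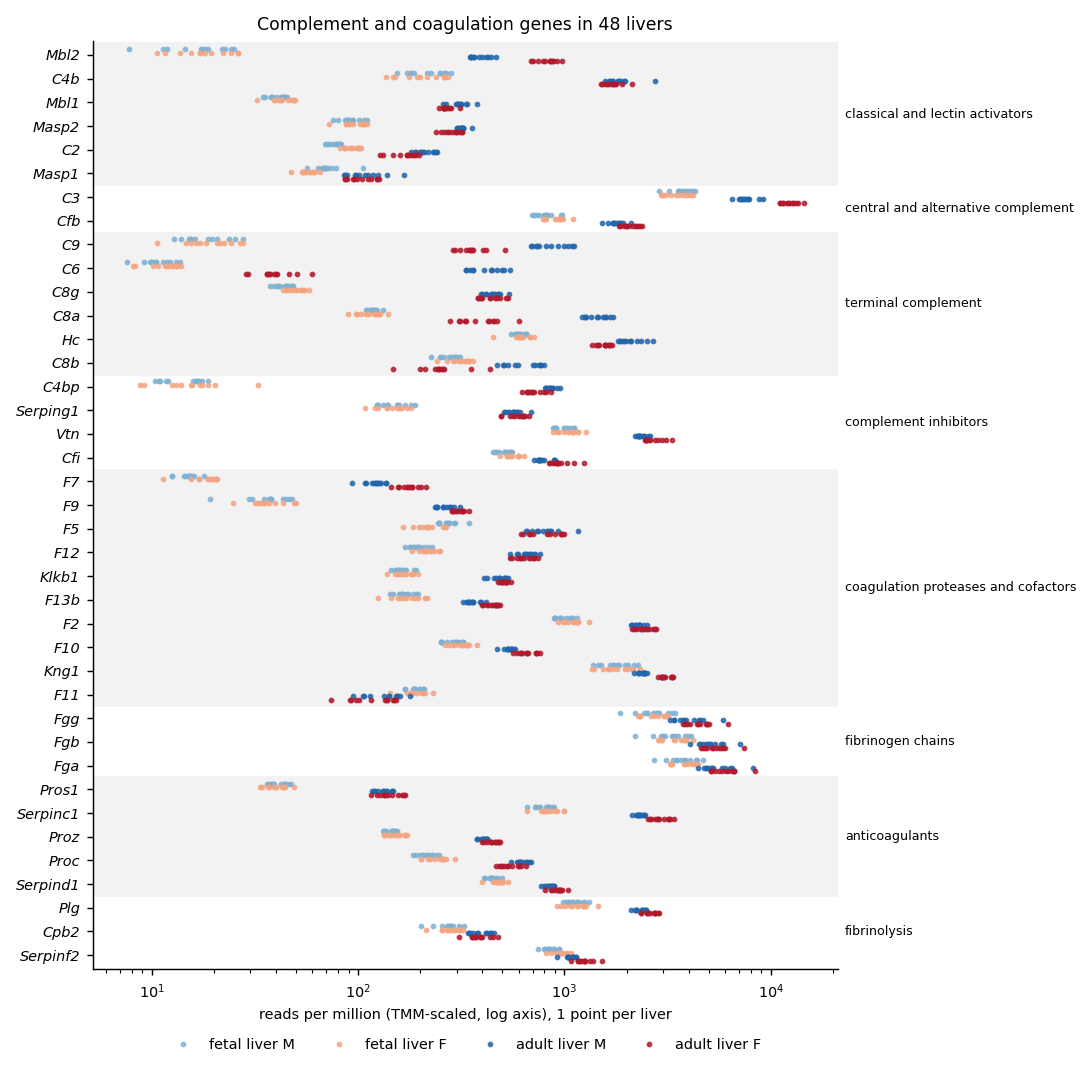
Levels of the 39 genes in the 48 livers, in CPM on a log axis, 1 point per liver, with fetal livers in pale and adult livers in dark colours. With the TMM scaling shown, adult points lie to the right of fetal points for most genes, of which 16 turn below 0 on the hepatocyte scale, and within adult liver the M and F points do not overlap for C6, C8a, C8b, C9, Hc, Mbl2, C3, F7, Kng1 and Serpinc1.

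Genes of the same cascades outside the 39 were counted by where they are mainly made. Of 25 tested genes listed as also made mainly in liver, 19 were higher and 2 lower in adult liver, with a median log2 difference of 1.21. Clu, clusterin, rose by 4.05, C1ra and C1s, the proteases of the C1 complex, by 2.36 and 1.42. The 2 that fell, named after their values were seen, were F13a1, the catalytic chain of factor XIII (-6.16), and Serpina5, the protein C inhibitor (-3.69). F13a1 stands in this list although it is known to be made mainly by megakaryocytes and macrophages, and where the others are made was not tested. Of 14 tested complement genes made mainly by other cells 2 were higher and 6 lower (median -0.39). Itgam and Itgb2, the chains of complement receptor 3 on myeloid cells, were lower (-4.54 and -2.097), and Vsig4, the complement receptor of resident macrophages, rose by 2.22. Of 15 tested coagulation genes made mainly by other cells 4 were higher and 8 lower (median -0.73). Tfpi2, a protease inhibitor, rose by 1.70, F8, made by endothelium, by 0.94, and Plaur, the urokinase receptor, fell by 3.64 on the log2 scale.

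Within adult liver 7 of the 39 genes differed by gender label, and 4 of them belong to terminal complement. C6, C8a, C8b and C9 were higher in M, and Mbl2, C3 and F7 were higher in F. Over the 10372 genes tested, 3.01% were called higher in M and 6.48% higher in F. The median log2 difference, M minus F, was -0.10 for the 39 genes and -0.00094 for all genes tested. In 5 of the 39 every M liver lay above every F liver (1.37% of all genes tested) and in another 5 every M liver lay below (1.46%).

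C6 had the widest gap. Its lowest, median and highest values were 332, 423 and 545 CPM in the 12 adult M livers and 28.8, 38.4 and 59.6 CPM in the 12 adult F livers, with no overlap. The means were 421 ± 74.6 CPM (SD, n = 12) and 40.1 ± 8.62 CPM (SD, n = 12), and the log2 difference was 3.36 (SE 0.11, adjusted p = 1.6e-20), 10.3-fold.

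C8a and C8b, the alpha and beta chains of C8, shared the direction but not the size. C8a stood at 1210.4, 1443 and 1722 CPM in M and 278, 399 and 602 CPM in F, a log2 difference of 1.84 (SE 0.10, adjusted p = 1.97e-14). C8b stood at 472, 652 and 793 CPM in M and 148, 246 and 435 CPM in F, a difference of 1.29 (SE 0.13, adjusted p = 4.95e-08). Neither gene overlapped between M and F. The genes lie close to each other on chromosome 4 in opposite orientation, C8b from 104766317 to 104804548 on the plus strand and C8a from 104815679 to 104876398 on the minus strand (GRCm38, GENCODE M21). C8g, which lies on chromosome 2, stood at 393, 447 and 536 CPM in M and 379.8, 434 and 530.4 CPM in F. Its libraries overlapped, and its log2 difference of 0.0087 (SE 0.062, adjusted p = 0.941) did not pass either threshold.

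C9 stood at 689, 839 and 1117 CPM in adult M livers and 289.6, 349.8 and 513 CPM in adult F livers, with no overlap and a log2 difference of 1.25 (SE 0.094, adjusted p = 9.96e-12). Hc, the fifth component, pointed the same way without passing the fold threshold, at 1821, 2028 and 2686 CPM in M and 1366, 1573 and 1691 CPM in F and a difference of 0.42 (SE 0.061, adjusted p = 2.72e-06), and its M and F livers did not overlap. All 6 terminal genes had a log2 difference above 0, of which 4 were called.

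**Figure D3:**
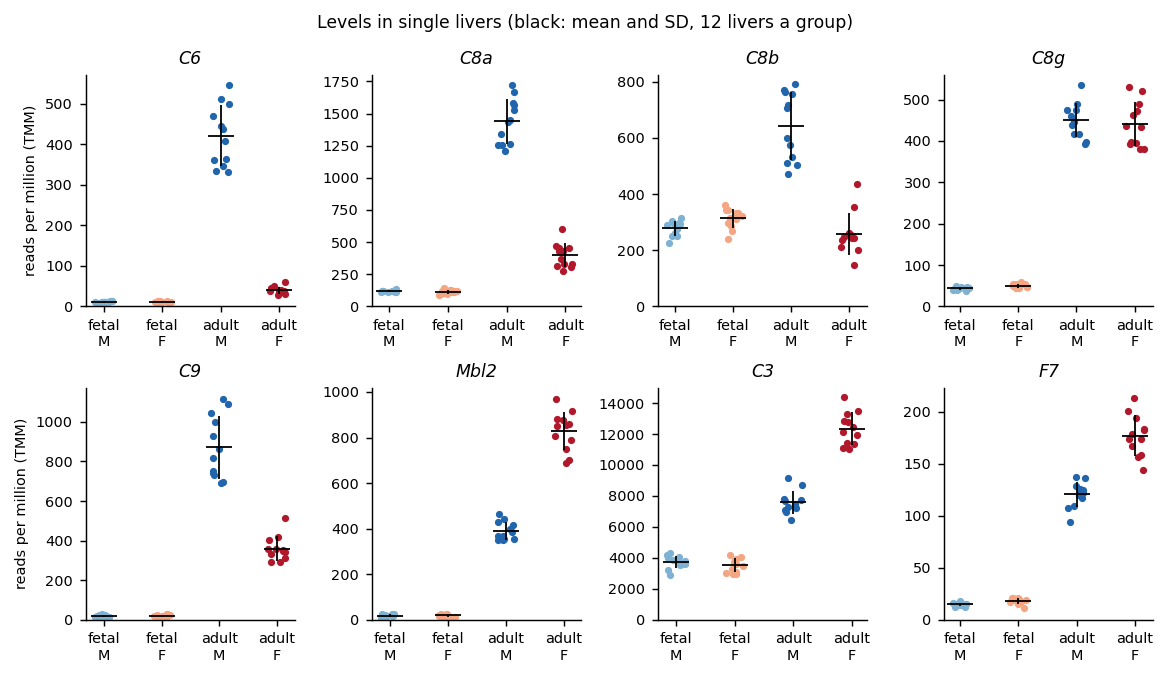
Levels of 8 genes in single livers, in CPM on linear axes from 0, for fetal M, fetal F, adult M and adult F, with 12 points a group and the mean and SD in black. Adult M livers stand above adult F livers for C6, C8a, C8b and C9 and below them for Mbl2, C3 and F7, while for C8g they overlap, and fetal M and F livers overlap for all 8.

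The genes higher in F came from other steps of the cascades. Mbl2 stood at 349, 375 and 465 CPM in adult M and 687, 852 and 970.0 CPM in adult F, a log2 difference of -1.11 (SE 0.062, adjusted p = 1.06e-15). Mbl1, the other mannose-binding lectin, was at 0.18 (SE 0.053, adjusted p = 0.00963), on the other side of 0 and under the fold threshold. C3 stood at 6471, 7468 and 9172 CPM in M and 11034, 12265 and 14409 CPM in F, a difference of -0.72 (SE 0.057, adjusted p = 6.95e-12). F7 stood at 93.6, 122 and 137 CPM in M and 144, 176 and 213 CPM in F, a difference of -0.57 (SE 0.064, adjusted p = 1.8e-08). For Mbl2, C3 and F7 the M and F livers did not overlap, and F7 fell short of the fold threshold, at -0.41, on the hepatocyte scale, on which Hc passed it, at 0.57.

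A further 19 of the 39 genes passed the p-value but had log2 differences of 0.12 to 0.42 in size, 6 higher in M and 13 higher in F. The share of all genes that passed the p-value alone is not given here. Kng1 (-0.40) and Serpinc1 (-0.36) were the other 2 genes in which every M liver lay below every F liver. C2 was at 0.30 and C4bp at 0.23, both higher in M, and 13 genes, the 3 fibrinogen chains among them, did not pass the p-value. The fibrinogen chains lay between -0.18 and -0.10. By role, 1 of 6 activators, 1 of 2 central genes, 4 of 6 terminal genes, 0 of 4 inhibitors, 1 of 10 coagulation proteases and cofactors, and 0 of the 3 fibrinogen chains, 5 anticoagulants and 3 fibrinolysis genes were called in either direction.

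Markers of other cells also differed between adult M and F. Of 8 macrophage markers 4 were higher in F, and their sum was 433 to 748 CPM in M and 552 to 1179 CPM in F, with Clec4f of Kupffer cells at -0.59 and Cd68 at -0.77 for M minus F. The erythroid sum did not overlap, at 188 to 242 CPM in M and 19.1 to 56.8 CPM in F. Of its 9 markers only 1 passed the filter, Alas2, an enzyme of haem synthesis, which was higher in M (2.79). Hbb-b1, Hba-a1 and Hba-a2 were at 0 in every adult liver. Lyve1 of 7 endothelial markers and both proliferation markers tested, Mki67 and Top2a, were higher in F (-0.58, -1.03 and -0.76), 0 of 6 stellate markers were called, and the megakaryocyte and neutrophil markers did not pass the filter. The part of these cells in the differences of the 39 genes was not tested. The hepatocyte sum was 75367 to 89086 CPM in M and 88422 to 101809 CPM in F, and Ahsg was higher in F (-0.58) while the other 9 were not called. On the hepatocyte scale, C6, C8a, C8b, C9 and Hc were called higher in M and Mbl2 and C3 higher in F. That scale moved the median log2 difference of all genes tested to 0.16, with 6.85% called higher in M and 3.70% higher in F.

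Among cascade genes outside the 39, 1 of 23 tested genes listed as liver-made was higher in M and 1 higher in F. C4a, the copy of C4b known as sex-limited protein, had 131 CPM in M and 6.30 CPM in F, a log2 difference of 4.34 (SE 0.30, adjusted p = 5.57e-11). C4b itself was at 0.10 (SE 0.072, adjusted p = 0.321), and reads of the pair may have been split between them. Fgl1, a fibrinogen-like protein named after its value was seen, was higher in F (-1.38). Of 10 tested complement genes made mainly by other cells 5 were higher in F, Vsig4 (-0.90), C1qc (-0.62) and Cfp (-0.81) and, named after their values were seen, C1qa (-0.66) and C3ar1 (-0.73). Of these, C1qa and C1qc encode chains of the C1q recognition protein. Also, of 9 tested coagulation genes made mainly by other cells Serpine2, a thrombin inhibitor, and F2r, the thrombin receptor, were higher in M (1.97 and 1.26).

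The balance of the transcripts for the C8 chains differed between the groups, with no protein measured. On the per-kilobase scale the ratio of C8a to C8g was 1.19 ± 0.198 (SD, n = 12) in adult M and 0.341 ± 0.105 in adult F, and that of C8b to C8g was 0.858 ± 0.159 and 0.357 ± 0.117, with no overlap of M and F livers for C8a to C8g. In fetal liver the ratio of C8b to C8g was 3.85 ± 0.478 in M and 3.74 ± 0.337 in F. C8b was the major C8 transcript per kilobase in fetal liver and the transcripts of the 3 chains were nearest to each other in adult M. These comparisons between chains rest on the exon lengths used, and C8g overlaps Fbxw5 on the opposite strand. The fibrinogen chains kept nearly the same ratio in all 4 groups, with Fga to Fgb between 1.37 and 1.45 and Fgg to Fgb between 1.44 and 1.52 as group means.

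The same comparison in fetal liver gave small differences. Of the 39 genes 0 were called by edgeR, with log2 differences of -0.26 to 0.37, while 3.81% of the 12930 genes tested were called higher in M and 0.828% higher in F. In edgeR 12 of the 39 had an adjusted p under 0.1 with a difference under the fold threshold, 2 higher in M and 10 higher in F. DESeq2 also called 0, and 14 of the 39 had an unadjusted p-value under 0.05 in either tool. The shares of all genes that passed these p-value thresholds alone are not given here. C6 stood at 7.58, 10.5 and 13.7 CPM in fetal M and 8.13, 11.9 and 13.8 CPM in fetal F, C8a at 109, 118 and 132 CPM and 89.01, 116 and 139.9 CPM, and C9 at 12.9, 17.4 and 27.6 CPM and 10.7, 19.5 and 27.6 CPM. M and F livers overlapped in all 39 genes, a count without the share of all genes that overlapped in fetal liver beside it. The largest differences were in Masp1 (0.37), F5 (0.34) and C2 (-0.26). With the share of reads outside genes as a covariate the calls over all genes went from 600 to 9, and those among the 39 were 0 in both fits.

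The gap between M and F differed between the 2 stages for 7 of the 39 genes by the test of the interaction (13026 genes tested, of which 5.19% were called towards M and 8.53% towards F in adult liver). It was more towards M in adult liver for C6 by 3.47 (SE 0.15, adjusted p = 7.11e-26), C8a by 1.80 (SE 0.12, adjusted p = 4.52e-18), C8b by 1.48 (SE 0.15, adjusted p = 2.64e-11), C9 by 1.34 (SE 0.18, adjusted p = 7.2e-08) and C2 by 0.60 (SE 0.081, adjusted p = 8.16e-08), as log2 differences of the gaps. The call of C2 was lost with adult livers of at least 2000000 reads (0.49). It was more towards F for Mbl2, at -1.02 (SE 0.18, adjusted p = 2.21e-05), and C3, at -0.79 (SE 0.089, adjusted p = 7.23e-10). For F7 the difference of -0.27 (SE 0.099, adjusted p = 0.0366) did not pass the fold threshold. C2 had 77.01 ± 4.65 CPM (SD, n = 12) in fetal M, 93.7 ± 7.28 CPM (SD, n = 12) in fetal F, 211 ± 20.9 CPM (SD, n = 12) in adult M and 169 ± 22.7 CPM (SD, n = 12) in adult F, so that its gap was above 0 in adult and below 0 in fetal liver, though neither gap passed the fold threshold. The fetal part of these differences shares the imbalance in reads outside genes given above.

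**Figure D4:**
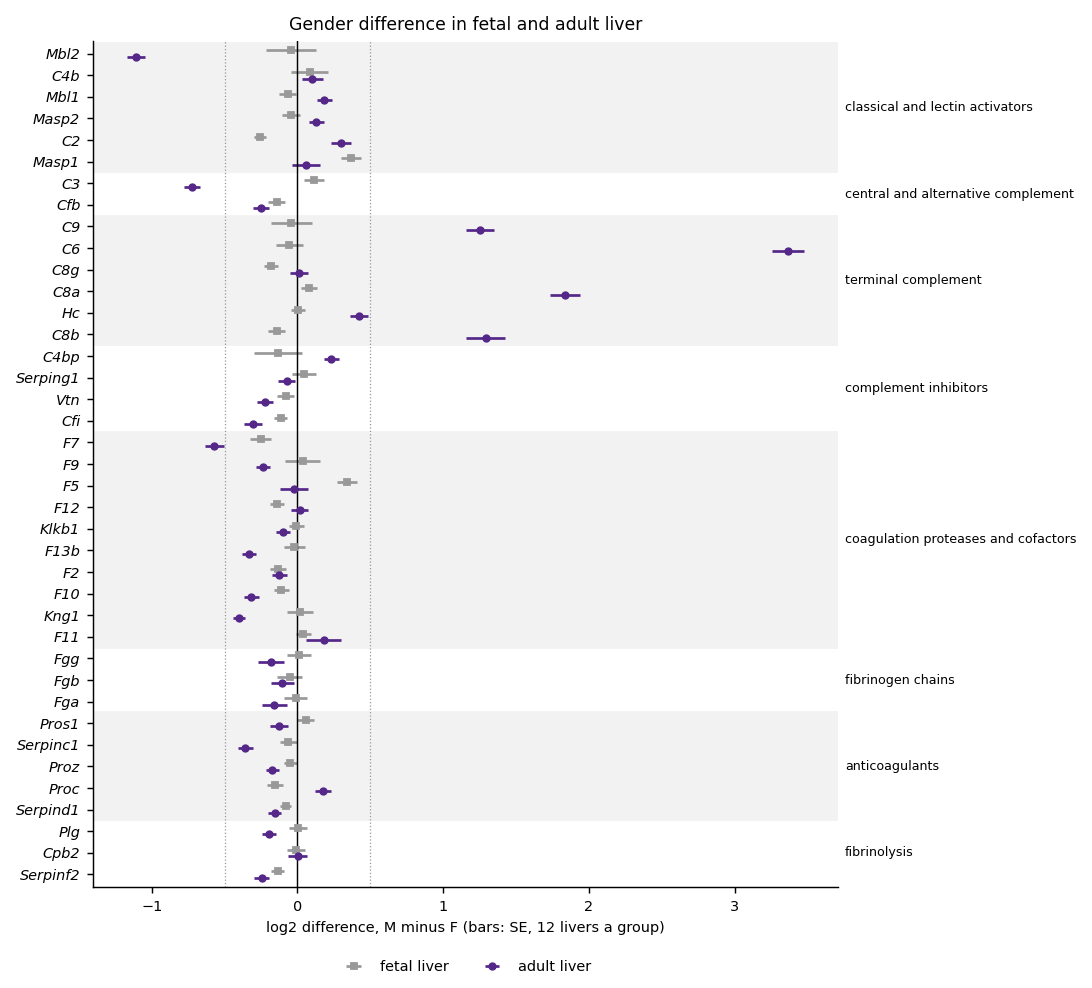
Log2 difference between M and F in adult liver (circles) and fetal liver (squares) for each of the 39 genes, with standard errors over 12 livers a group and dotted lines at the fold threshold. All fetal values lie within the dotted lines, and adult values beyond them are those of C6, C8a, C8b and C9 to the right and Mbl2, C3 and F7 to the left.

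The stage difference was also fitted within each gender. For C8b the adult to fetal log2 difference was 1.17 (SE 0.083, adjusted p = 3.8e-14) in M and -0.30 (SE 0.11, adjusted p = 0.018) in F, on either side of 0. Mean levels were 278 and 313 CPM in fetal M and F, 642 CPM in adult M and 258 CPM in adult F. For C6 the stage difference was 5.23 in M, 37.6-fold, and 1.78 in F, 3.43-fold. For C8a it was 3.57 and 1.78, and for C9 5.50 and 4.17. For Mbl2 it was 4.43 in M and 5.46 in F, and for C3 0.99 and 1.79. C8g was nearly the same in both, at 3.34 and 3.11.

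In eight-cell embryos and ES cells most of the 39 genes were at or near 0. Together they took 0.00539% to 0.0134% of the reads on genes in an embryo and 0.00665% to 0.0121% in an ES cell line. In the embryos 16 genes had no read in any of the 12 libraries, and 20 were under 3 reads in each. In the ES cells 13 had no read in any of the 4 libraries, and 23 were under 3 reads in each. By counting error alone, a count of 0 allows up to 0.361 to 0.647 CPM in an embryo and 0.212 to 0.233 CPM in an ES cell line, the worth of 3 reads. Loss of a transcript before counting is not covered by it and was not tested. Pros1, for one, had 78 reads in 1 embryo and 0 in 8 of the 12. Embryo libraries were made by a single-cell amplification and the others from total RNA, so levels are set side by side with no test, and here all values are scaled over the 64 libraries.

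Averaged over the 12 embryos, 9 genes reached 1 CPM, and 3 of them, C2, Kng1 and Serping1, had at least 3 reads in every embryo. C2 had its lowest, median and highest value at 7.96, 23.8 and 48.4 CPM, Kng1 at 1.93, 22.5 and 62.3 CPM and Serping1 at 1.30, 17.1 and 42.1 CPM. These levels spread widely over single embryos, and for C2 the highest stayed below every fetal liver. Serpinc1 was at 0, 5.65 and 21.3 CPM with reads in 10 embryos, Serpinf2 at 0, 3.75 and 8.31 CPM with reads in 8 and F2 at 0, 0.694 and 6.49 CPM with reads in 9. Cfb was at 0, 1.13 and 18.4 CPM, and Mbl2 at 0, 0.435 and 18.3 CPM, both with no read in 5 or more of the embryos. Pros1 had at least 3 reads in 4 of the 12 embryos.

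In ES cells 7 of the genes reached a mean of 1 CPM. Pros1, which also serves as a ligand of TAM receptor kinases outside the blood, stood out with 25.8 and 68.8 CPM in the M lines and 53.3 and 50.5 CPM in the F lines. That range overlapped the 35.7 to 54.01 CPM of fetal livers and lay below the 110.1 to 172 CPM of adult livers. Masp2 ranged over 3.66 to 15.1 CPM (51 to 198 reads), Serping1 over 6.30 to 11.7 CPM (89 to 153 reads), C2 over 1.40 to 2.44 CPM (18 to 32 reads) and F2 over 1.13 to 2.30 CPM (16 to 32 reads) in the 4 lines. C8g and Hc were lower, at 0.762 to 2.23 CPM (10 to 31 reads) and 0.287 to 2.13 CPM (4 to 28 reads). Masp2 overlaps Tardbp and C8g overlaps Fbxw5 on the opposite strand, and since the strand setting of the counting is not stated, reads of the partners cannot be told apart. The same holds for C2, Masp1, F5, Serpinc1, Serpind1 and Plg, which also overlap a gene on the other strand.

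**Figure D5:**
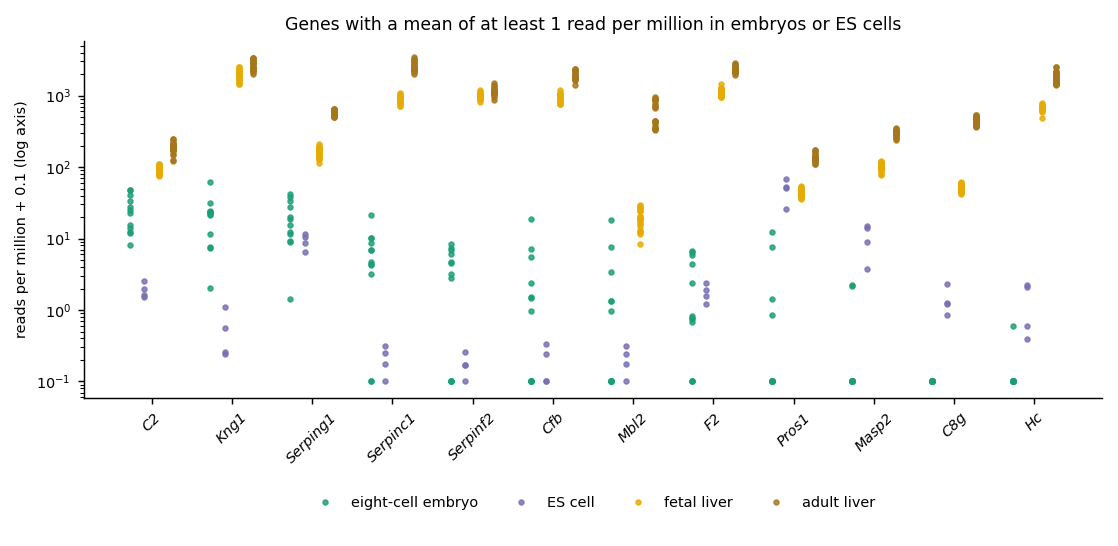
Levels of the genes that averaged 1 CPM or more in eight-cell embryos or ES cells, in every library of the 4 stages, as CPM plus 0.1 on a log axis, so that points at the bottom are libraries with no read. Only for Pros1 do the ES cells reach the range of fetal liver, and the embryo points of C2, Kng1 and Serping1 are above 0 in all 12 libraries.

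Within a group the livers differed little for most of the genes. The median coefficient of variation over the 39 genes was 9.50% in fetal M, 11.7% in fetal F, 9.14% in adult M and 10.03% in adult F. The highest in each group were Mbl2 in fetal M (30.8%), C4bp in fetal F (38.4%), Masp1 in adult M (21.9%) and C8b in adult F (28.5%). Liver libraries were sequenced in pools of 12 a lane per the study's methods, and which livers shared a lane or a litter is not given in the sources used here, so these spreads hold animal and library differences together.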

How the data were processed

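The authors deposited raw read counts per gene symbol for each of the 64 libraries, with no normalization. Per the paper's methods and the labels they aligned reads to mm10 (GRCm38) with TopHat2 2.0.4 and Bowtie2 2.1.0, used SAMtools 0.1.18, removed duplicates with Picard and counted with HTSeq. The strand setting of the counting is not given in the sources used here. The 5 summary entries per file, such as reads outside genes, were kept out of totals and tests.

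Groups follow the labels' stage and gender. Counts were tested with edgeR 4.0.16 in R 4.3.3 (TMM, filterByExpr, robust quasi-likelihood F test, two-sided, Benjamini-Hochberg adjustment over all genes tested). A call needs an adjusted p under 0.1 and an absolute log2 above 0.5, after the thresholds of the study, which used DESeq2. The alternatives were DESeq2 1.42.0, its size factors in edgeR, library totals, no filter, adult livers with at least 2000000 reads, a replicate block, scaling by the median ratio of 10 hepatocyte markers, the share of reads outside genes as a covariate, other thresholds, and 3 livers or adult liver 19 left out, the last 2 chosen after seeing the data. The tests were tested on simulated data. Exon lengths are unions from GENCODE M21, and summaries used Python 3.11.15. Genes were given in full where among the 6 largest called stage changes or the 6 smallest adjusted p-values by adult gender in each direction, every call of the interaction, and up to 8 with a mean of 1 CPM in embryos or ES cells. Others are named within their role, and at most 3 per list outside the 39, by adjusted p. The members, lists and rules were chosen with earlier results of these data known. The labels do not tie livers to litters, so p-values measure the spread between these samples only.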

Additional observations from a re-analysis of the deposited data

Results flagged for a closer look

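The gap between M and F differed between adult and fetal liver, by the interaction test of edgeR, for 7 of the 39 genes. As log2 differences of the gaps these were 3.47 for C6, 1.80 for C8a, 1.48 for C8b, 1.34 for C9, 0.60 for C2 (0.49 and not called with adult livers of at least 2000000 reads), -0.79 for C3 and -1.02 for Mbl2.

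Single embryos stood far from the others of their group in 4 of the 18 groups examined. Chance gives about 1 in 20 for normally distributed values, a rate that does not hold for groups mostly at 0 such as Pros1, whose embryo mean also rests on the 2 embryos named here. Kng1 was 62.3 CPM (289 reads) in M embryo 3, with the next at 24.3 CPM. Serping1 was 42.1 CPM (242 reads) in F embryo 9, with the next at 18.5 CPM. Pros1 was 12.2 CPM (78 reads) in M embryo 1, with the next at 1.30 CPM, and 7.48 CPM (43 reads) in F embryo 9, the only F embryo with a read of it.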

How the results depend on the processing

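The stage calls among the 39 genes, 36 higher and 1 lower, were 34 and 1 with DESeq2 and with its size factors (Cpb2 and Kng1 lost in both), 35 and 1 without the filter and without the 3 livers that stand apart, 35 and 1 in F and 36 and 1 in M livers, and 27 and 1 with library totals, where Cpb2 turned to -0.063. On the hepatocyte scale they were 22 calls, 12 higher and 10 lower, and 16 genes above 0 with TMM turned below 0: C2 -0.087, C8b -0.79, Cfb -0.074, Cfi -0.55, Cpb2 -0.74, F10 -0.26, F13b -0.014, F2 -0.069, Fga -0.62, Fgb -0.60, Fgg -0.59, Kng1 -0.66, Masp1 -0.50, Plg -0.13, Serpind1 -0.31 and Serpinf2 -0.89. Which of the 2 scales describes these livers was not tested. At an absolute log2 above 1 the count was 27 higher and 0 lower. The M and F calls in adult liver were 4 and 3 in all other fits except the hepatocyte scale (5 and 2). In those other fits 2.68% to 3.38% of all genes tested were called higher in M and 5.62% to 7.45% higher in F. On the hepatocyte scale 6.85% of all genes tested were called higher in M and 3.70% higher in F. At an adjusted p under 0.05 with no fold threshold they were 24, 9 higher in M and 15 in F. Neither this count nor that at an absolute log2 above 1 has the share of all genes beside it here. The interaction gave 7 genes, 6 with adult livers of at least 2000000 reads, where C2 was at 0.49, and 8 without the 3 livers that stand apart, where Hc was at 0.51. Leaving out adult liver 19, also chosen after seeing the data, gave 36 and 1, 4 and 3, and 7. Its stage fit called 31.5% of all genes higher and 35.7% lower. The shares of all genes for the interaction outside the main fit are not given here. Fetal M and F calls were 0 in every fit run. Livers of different stages share only a title number: over 24 such pairs the correlation of deviations was -0.173 to 0.0711. The replicate block on that number gave 37 stage calls, 36 higher and 1 lower, with 31.7% of all genes called higher and 35.5% lower. Adult livers were the shallowest, with fewer genes tested.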

Other observations

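Within the adult livers of one gender C8a varied together with C8b and with the fibrinogen gene Fgb. The relations were chosen after seeing the data and 22 were computed, on log2 CPM over 12 livers each, with permutation tests and Benjamini-Hochberg adjustment over the 22. C8a and C8b had a Pearson r of 0.825 (permutation p = 0.00208, adjusted p = 0.00572, Spearman rho 0.713, permutation p = 0.0117) in M and 0.793 (permutation p = 0.00161, adjusted p = 0.00572, Spearman rho 0.825, permutation p = 0.00168) in F. Without the 2 livers farthest from the median of C8a these were 0.833 and 0.669. C8a and Fgb, which encode parts of different cascades, had an r of 0.819 in M (permutation p = 0.00051, adjusted p = 0.00224, Spearman rho 0.853, permutation p = 0.00087) and 0.892 in F (permutation p = 0.00015, adjusted p = 0.0011, Spearman rho 0.762, permutation p = 0.00546), and 0.761 and 0.814 without 2 livers.

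C8a and C8g had an r of -0.129 (permutation p = 0.686, adjusted p = 0.755, Spearman rho -0.168, permutation p = 0.602, r without 2 livers -0.152) in M and -0.476 (permutation p = 0.118, adjusted p = 0.153, Spearman rho -0.364, permutation p = 0.246, r without 2 livers -0.516) in F. In M, C8a and C9 had an r of 0.774 (permutation p = 0.00503, adjusted p = 0.00922, Spearman rho 0.755, permutation p = 0.00668, r without 2 livers 0.748). In F, C8a and C9 had an r of 0.686 (permutation p = 0.0128, adjusted p = 0.0201, Spearman rho 0.65, permutation p = 0.0264, r without 2 livers 0.279), which rests on those 2 livers. Over all pairs of C6, C8a, C8b and C9 the r was 0.769 to 0.901 in M and 0.578 to 0.793 in F. Without 2 livers it was 0.729 to 0.871 in M and 0.279 to 0.669 in F. C8a had an r with the log2 reads on genes of -0.333 (permutation p = 0.282, adjusted p = 0.345, Spearman rho -0.336, permutation p = 0.288, r without 2 livers -0.501) in M and 0.163 (permutation p = 0.61, adjusted p = 0.706, Spearman rho 0.238, permutation p = 0.458, r without 2 livers 0.236) in F.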
